A study of Caenorhabditis elegans with 7 samples.

Results

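The genes described here are the MATH and BTB domain genes of Caenorhabditis elegans, taken as all rows of a table of splice junction reads whose gene name begins with bath-, math- or btb-. These are 36 of the 3717 genes in the table, with 145 of its 14533 lines and 76 of its 7678 introns. They fall into 23 bath genes (named for a BTB and a MATH domain together), 7 math genes (a MATH domain) and 6 btb genes (a BTB domain). The study sequenced small RNA from embryos to compare splicing mutants with wildtype. Wildtype N2 and rnp-2(mg582) each had 2 libraries, 1 in experiment 1 and 1 in experiment 2. Experiment 1 also held 1 library of mog-2(ok1221) and 1 of rnp-3(ok1424), experiment 2 held 1 of rnp-2(tm4058), and every strain had the N2 background. Each library came from a pool of embryos released from adults with hypochlorite. The labels describe neither the alleles nor whether embryos were homozygous, and they do not tell whether each library was its own culture. A p-value below therefore measures the spread between libraries, and part or all of it may be technical.

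BTB domain proteins are known as substrate adaptors of ubiquitin ligases built on the cullin CUL-3. In such an adaptor the BTB domain binds the cullin and a second domain, often a MATH domain, binds the protein to be marked, as in MEL-26, the adaptor that removes the katanin MEI-1 after meiosis in the worm embryo. Most bath and math genes belong to families that expanded within Caenorhabditis and lie in clusters on chromosome II. Endogenous small interfering RNAs of the worm are copied from transcripts by RNA-dependent RNA polymerases, so a small RNA across an exon-exon junction reads a spliced transcript and one across an intron-exon junction an unspliced one. The mutated genes encode proteins like those of the U1 snRNP (rnp-2) and the U2 snRNP (rnp-3 and mog-2), which recognise introns.

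The table gives CPM (reads scaled to the total of a library) at each intron end. Reads of its EEJ columns are called spliced and those of its IEJ columns unspliced, a reading of abbreviations that the labels do not spell out. Levels below are CPM scaled by TMM factors of the spliced reads, written as scaled CPM, so a level is set against most of the junctions in the table and not against the whole library. A gene's level is summed over its listed junctions. How strand and reads with several alignments were handled is not given in the sources used here. Close paralogs, which are many in this family, may therefore share or split reads, and no other annotated gene overlaps the listed introns of any member.

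Library totals ran from 9901228 to 142819946 reads, but the spliced reads in the table were between 73843, the rnp-2(tm4058) library, and 474217, the wildtype 2 library. The TMM factor was smallest for rnp-2(tm4058), 0.0846, and largest for rnp-3(ok1424), 2.98. Among marker genes, 6 of 8 oocyte and maternal genes were listed, with summed levels between 6.36 and 8.09 scaled CPM. Of the sperm markers 3 of 9 were listed (1.16 to 3.58), of muscle 2 of 5 (0.784 to 2.66), of neuron 4 of 6 (15.0 to 36.7), of zygotic embryo genes 2 of 10 (0.0585 to 0.613) and of adult intestine 0 of 7. Small RNA reads do not measure the mRNA of these markers, so they give no check of the tissue. Spliced reads on rnp-2 numbered 11 and 15 in the wildtype libraries, 12 and 10 in rnp-2(mg582) and 1 in rnp-2(tm4058). On rnp-3 there were 5 and 8 in wildtype and 0 in rnp-3(ok1424). The mog-2 gene itself was not analysed here.

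In the WBcel235 annotation, 90 genes carry these names, 36 of them bath, 37 math and 17 btb, and 77 lie on chromosome II. The table thus held 23 of 36 annotated bath genes and 7 of 37 annotated math genes. The other annotated genes, math-33 among them, were not analysed here. Of the 36 members, 29 lie on II and 27 of these between 1 and 4 Mb. A run of 8 members, from bath-21 to math-1, fills II:2014902-2046656, a stretch of 31.8 kb. The name btb-13 of the table falls on an annotated pseudogene, WBGene00022561, and the listed intron of btb-13 lies inside an annotated exon, so its "unspliced" reads may be ordinary exon reads.

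Some introns of the family share the exon bases next to them. To show this, the acceptor ends of introns from 6 members are given, 5′ to 3′, with the last bases of the intron, its AG in capitals, and then the first 5 bases of the next exon. Each of them continues into the exon with TTCCT.
bath-1, II:2028214-2028262, minus strand: ttcttttcAGttcct
bath-13, II:2521453-2521496, minus strand: tatattttAGttcct
bath-15, III:7775427-7775477, minus strand: tatttttcAGttcct
bath-7, II:1920527-1920576, minus strand: aatttttcAGttcct
bath-23, II:3371712-3371770, plus strand: tattttccAGttcct
btb-10, II:1060185-1060231, minus strand: aaaatttcAGttcct
TTCCT directly after the intron was found at 8 of the 76 member introns (10.5%, in 8 genes) and at 5 of the 7602 introns of all other genes (0.0658%). The letters were chosen after the sequences had been seen, and only the strand of the gene was read. Before the intron, the exon bases TGATG stood at 7 of 76 member introns (9.21%) against 27 of 7602 (0.355%), and CCATG at 6 of 76 (7.89%) against 4 of 7602 (0.0526%). Whether reads at these introns were shared between paralogs was not tested. A pair of introns of btb-10 and btb-11 had the same listed donor bases, shown with the GT in capitals after 5 exon bases.
btb-10, II:1060185-1060231, minus strand: aggctGTaagtttta
btb-11, II:1024218-1024264, minus strand: aggctGTaagtttta

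The introns were short, with a median length of 49 bases (quartiles 45 and 53) against 58 (48 and 299) in all other genes. GT stood at the donor end of 74 of 76 and AG at the acceptor end of 74 of 76. TTCAG, the usual end of a worm intron, closed 50 of 76 member introns (65.8%), 55.0% of the introns of other genes and 48 of 93 introns (51.6%) of the F-box genes fbxa, fbxb and fbxc, another expanded family. GTAAG opened 16 of 76 (21.1%) against 24.8% in other genes. The F-box introns were also short, with a median length of 52 bases (quartiles 48 and 146.5). In 7 member introns (9.21%) the unspliced reads per listed end outnumbered the spliced reads, against 4.28% of the introns of other genes. Among the F-box introns this held for 7 of 93 (7.53%), close to the share of the members. The 7 member introns lie in bath-28, btb-12, btb-13, math-13, math-46, math-48 and math-49. TTCAG closed 1 of these 7 and 49 of the other 69. In all other genes it closed 41.8% of mostly unspliced introns and 55.6% of the rest.

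The ends of the introns that carried mostly unspliced reads are shown for comparison with those above, again with the splice dinucleotides in capitals. They are those of 6 of the 7 introns, all on II, and the seventh, of math-46 on I, is given by its coordinates further on. Where the table lists 1 end only, the coordinate is that of the listed end. For math-13 and math-49 this is the donor end, so the acceptor bases shown lie at the other end. For btb-12, math-48 and bath-28 it is the acceptor end.
btb-12 acceptor, plus strand, end 1655473: tcaccgttAGacgcc
btb-13 acceptor, minus strand, 1654448-1654520: tgcatttgAGactcc
math-13 acceptor, plus strand, start 1876394: ttctttacAGatgat
math-48 acceptor, minus strand, start 1946352: cgtgttacAGgagaa
math-49 acceptor, minus strand, end 1954673: ttatttgaAGatgta
bath-28 acceptor, minus strand, start 3344533: gtaatttcAGacttt
The bath-28 intron is the 1 of the 7 that ends in TTCAG.

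The members' small RNAs were dominated by a few bath genes. Over the 7 libraries the family held 29567 spliced reads, 1.80% of all listed spliced reads (95% Wilson interval 1.78 to 1.82%, counting error only). Of these, bath-45 alone held 49.8% and bath-20 13.5%. In sum, the bath genes had 28563 spliced and 372 unspliced reads, the math genes 560 and 297, and the btb genes 444 and 438. Unspliced reads were therefore 1.29% of the bath reads (1.16 to 1.42%), 34.7% of the math reads (31.5 to 37.9%) and 49.7% of the btb reads (46.4 to 53.0%). These intervals pool the libraries and cover counting error only. By library the share ran from 0.662 to 1.69% for bath, from 19.5 to 45.8% for math and from 36.5 to 60.6% for btb. In wildtype the btb share was 36.5 and 59.8%. The btb share rests largely on btb-13 and btb-12 and the math share on math-49, math-46 and math-48. Of the 438 unspliced btb reads, 236 are of btb-13, whose listed intron lies inside an annotated exon. Without btb-13, which had no spliced reads, the btb share would be lower. These shares count unspliced reads at every listed intron end but spliced reads once per junction, so they are not shares per end.

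Levels spread widely among members. A mean of at least 1 scaled CPM was reached by 11 of the 36, against 22.6% of all genes, another 21 had some spliced reads, and btb-13, math-13, math-46 and math-48 had none in any library. The median of the members' mean levels was 0.428 scaled CPM, against 0.335 over all genes. Of all 3717 genes, bath-45 ranked 16 by summed level, bath-20 ranked 72, bath-7 ranked 126 and bath-24 ranked 182. Since genes differ in how many junctions are listed, the ranks were also taken per junction. Per listed junction bath-45 had 7.98 scaled CPM and ranked 46, bath-20 had 3.81 and ranked 92, and bath-7 had 2.13 and ranked 161. The first math gene by this measure was math-44 (0.596, rank 632) and the first btb gene btb-8 (0.182, rank 2256).

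**Figure D1:**
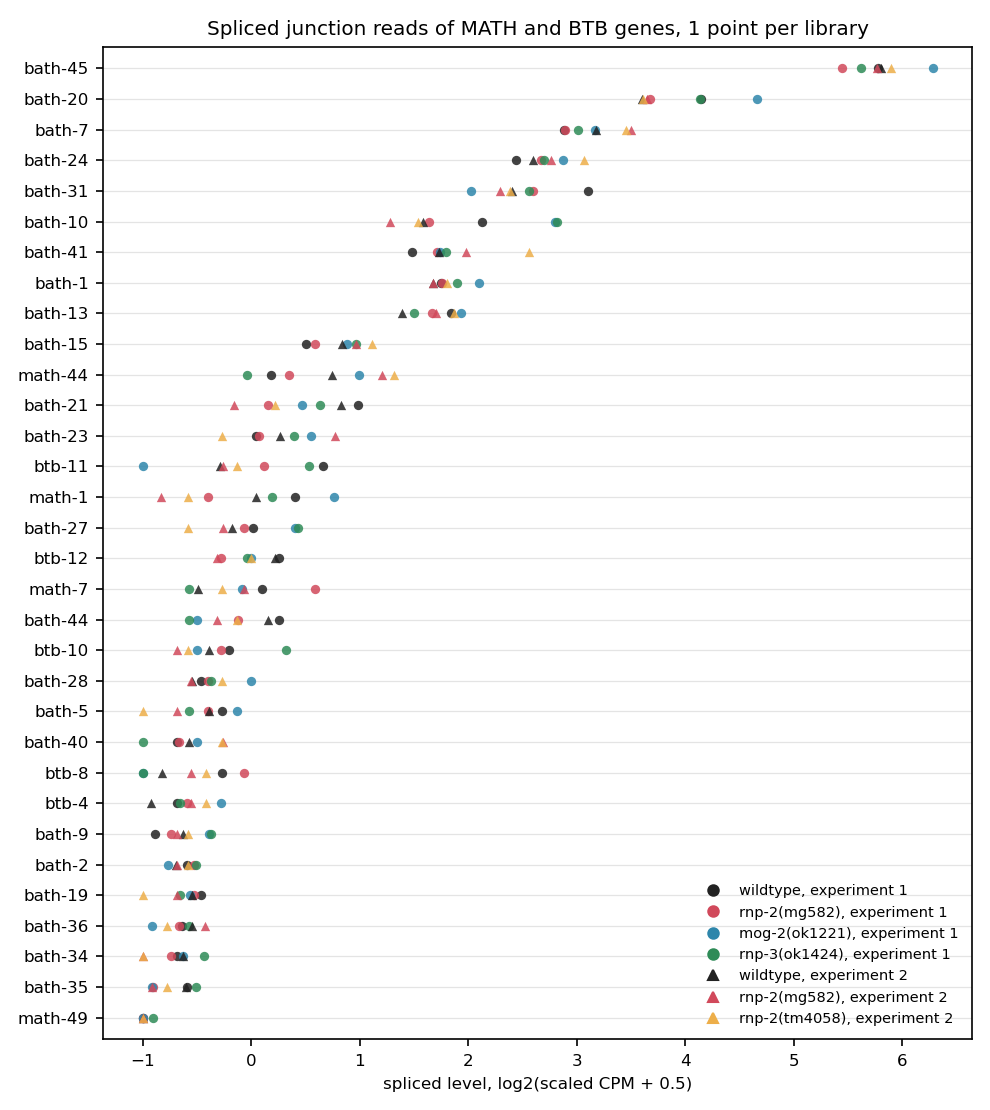
Spliced level of the 32 members with spliced reads, as log2(scaled CPM + 0.5), with 1 point per library; circles are experiment 1, triangles experiment 2 and colours the genotypes. The members are ordered by mean level, from bath-45 at the top to math-49 with 1 read. bath-45 and bath-20 stand apart from the rest, and from bath-7 on the points of neighbouring genes overlap.

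The level of bath-45 was 54.2 scaled CPM in wildtype 1 and 55.3 in wildtype 2, 42.9 and 53.8 in rnp-2(mg582), 58.9 in rnp-2(tm4058), 77.1 in mog-2(ok1221) and 48.6 in rnp-3(ok1424). Both rnp-2(mg582) libraries lay below both wildtype libraries, but the second by little, and mog-2(ok1221) was the highest of all. For bath-20 the values were 17.2 and 11.6 in wildtype, 12.3 and 12 in rnp-2(mg582), 11.7 in rnp-2(tm4058), 24.8 in mog-2(ok1221) and 17.1 in rnp-3(ok1424). Here all 3 libraries of experiment 2 stood between 11.6 and 12, and again mog-2(ok1221) was the highest.

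In wildtype bath-7 stood at 6.87 and 8.52 scaled CPM, in rnp-2(mg582) at 6.90 and 10.8, in rnp-2(tm4058) at 10.4, in mog-2(ok1221) at 8.46 and in rnp-3(ok1424) at 7.55. For bath-24 the wildtype libraries had 4.92 and 5.54, rnp-2(mg582) 5.87 and 6.27, mog-2(ok1221) 6.82, rnp-3(ok1424) 5.99 and rnp-2(tm4058) 7.87. All 5 mutant libraries thus lay above both wildtype libraries for bath-24, while the groups overlapped for bath-7. The bath-31 level was 8.09 and 4.80 in wildtype, 5.55 and 4.40 in rnp-2(mg582), 4.72 in rnp-2(tm4058), 3.57 in mog-2(ok1221) and 5.38 in rnp-3(ok1424). It was highest in wildtype 1 and lowest in mog-2(ok1221), the library in which bath-20 was highest.

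Among the next members, bath-10 had 3.86 and 2.50 in wildtype, 2.61 and 1.93 in rnp-2(mg582), 2.40 in rnp-2(tm4058), 6.44 in mog-2(ok1221) and 6.53 in rnp-3(ok1424). The libraries of both U2 snRNP genotypes were the highest there. For bath-41 the values were 2.29 and 2.82 in wildtype, 2.77 and 3.44 in rnp-2(mg582), 5.38 in rnp-2(tm4058), 2.84 in mog-2(ok1221) and 2.98 in rnp-3(ok1424), with rnp-2(tm4058) standing apart. Of these 8 members bath-1 moved least, from 2.68 to 3.78, with wildtype at 2.86 and 2.70. By their ranges over the 7 libraries, bath-45 lay above all other members and bath-20 above bath-7. The range of bath-7 overlapped those of bath-24 and bath-31 but lay above those of bath-10, bath-41 and bath-1. From bath-7 on each member's range overlapped that of the next. Such ranges ignore that neighbouring genes were read in the same libraries, and bath-7 was above bath-24 in every library. Whether these neighbours differ was not tested.

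Among the math genes, math-44 had 0.633 and 1.18 scaled CPM in wildtype, 0.774 and 1.81 in rnp-2(mg582), 1.99 in rnp-2(tm4058), 1.49 in mog-2(ok1221) and 0.474 in rnp-3(ok1424), so the groups overlapped. The 2 others with the most spliced reads were math-1 and math-7, and math-7 had 0.572 and 0.212 in wildtype, 1.0 and 0.452 in rnp-2(mg582), 0.331 in rnp-2(tm4058), 0.439 in mog-2(ok1221) and 0.169 in rnp-3(ok1424). Experiment 1 was higher than experiment 2 for math-7 in both genotypes that had both. No btb gene reached a mean of 1 scaled CPM.

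The family as a whole was highest in mog-2(ok1221) and lowest in rnp-2(mg582) 1, with the other mutant libraries near or within the wildtype range. Its summed spliced level was 114 and 105 scaled CPM in wildtype, 92.8 and 106 in rnp-2(mg582), 116 in rnp-2(tm4058), 147 in mog-2(ok1221) and 109 in rnp-3(ok1424). Only rnp-2(mg582) 1 fell below the wildtype range and only rnp-2(tm4058) and mog-2(ok1221) rose above it. Because bath-45 alone holds 49.8% of the reads, its value in mog-2(ok1221) weighs heavily there. The summed level of the 4 listed neuron markers was lowest in mog-2(ok1221), at 15.0 scaled CPM against 28.3 to 36.6 in wildtype, most of it from unc-10. Its part in the family's level was not tested.

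The first question was which members changed in rnp-2(mg582), the mutant with 2 libraries. In the main model, which left out the experiment, no member passed the test on spliced reads, while 8.34% of the genes tested did. Of 31 members that passed the filter on low counts, 0 were called (limma, Benjamini-Hochberg adjusted p under 0.05 over 3551 genes), 4 had an unadjusted p under 0.05, and edgeR and DESeq2 also called 0. Over all genes 134 were called up (3.77%) and 162 down (4.56%). The median log2 difference was -0.0013 over the members and -0.019 over all genes tested, with 15 members above 0 and 16 below. With the experiment as a replicate block, limma called 2 of the 31 members and 714 of 3551 genes.

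The 2 members nearest to the threshold were bath-21 and math-1, which lie at the opposite ends of the 31.8 kb run on II. Spliced reads of bath-21 stood at 1.47 and 1.27 scaled CPM in wildtype (72 and 96 reads) and at 0.613 and 0.392 in rnp-2(mg582) (19 and 13 reads). The other mutants had 0.662 in rnp-2(tm4058), 0.878 in mog-2(ok1221) and 1.05 in rnp-3(ok1424). Every mutant library lay below both wildtype libraries, and those of rnp-2 were the lowest 3. The log2 difference of rnp-2(mg582) from wildtype was -0.91 ± 0.23 (SE), with an adjusted p of 0.0512 in limma, which did not pass. As reads, wildtype was 2.71 times rnp-2(mg582) (95% counting interval 1.85 to 4.08).

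The values of math-1 were 0.817 and 0.529 scaled CPM in wildtype (40 reads in each), 0.258 and 0.0603 in rnp-2(mg582) (8 and 2 reads), 0.166 in rnp-2(tm4058), 1.2 in mog-2(ok1221) and 0.643 in rnp-3(ok1424). The 3 rnp-2 libraries were below wildtype, and the mog-2(ok1221) library was above it. Its log2 difference in rnp-2(mg582) was -0.84 ± 0.23 (SE) with an adjusted p of 0.0704 in limma, and wildtype was 4.12 times rnp-2(mg582) in reads (2.13 to 8.92). With the experiment as a replicate block, both genes were called, bath-21 with an adjusted p of 0.00204 and math-1 with 0.00283, and 714 of 3551 genes passed in all. The calls on these 2 genes thus depend on whether the shared experiment is modelled. The 3 listed sperm markers had summed levels of 2.92 to 3.58 scaled CPM in wildtype and 1.16 to 2.93 in the mutants. Of these spe-41 was called down in rnp-2(mg582), with a log2 difference of -1.43 (adjusted p = 0.0147 in limma), while spe-47 (0.40, adjusted p = 0.360) and spe-39 (-0.016, adjusted p = 0.978) were not called, and their part in the values of bath-21 and math-1 was not tested.

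Of the other members of small p, btb-12 had 0.695 and 0.662 scaled CPM in wildtype and 0.323 and 0.301 in rnp-2(mg582), with 0.497 in rnp-2(tm4058), 0.498 in mog-2(ok1221) and 0.474 in rnp-3(ok1424). All 5 mutant libraries lay below wildtype, and the log2 difference in rnp-2(mg582) was -0.54 (adjusted p = 0.140 in limma). For bath-35 the counts were small, with 8 and 12 reads in wildtype and 1 in each rnp-2 library and in mog-2(ok1221), against 6 in rnp-3(ok1424). Its log2 difference was -0.32 (adjusted p = 0.129 in limma). On the upper side btb-4 had 0.123 and 0.0265 scaled CPM in wildtype and 0.161 and 0.181 in rnp-2(mg582), a log2 difference of 0.23 (adjusted p = 0.407 in limma). The other members of smallest p with a positive sign were math-7 (0.45, adjusted p = 0.409), btb-8 (0.23, adjusted p = 0.603) and bath-23 (0.26, adjusted p = 0.635), none of them called by limma.

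Counted without a test, both rnp-2(mg582) libraries lay below both wildtype libraries for 8 of 31 members (bath-5, bath-21, bath-34, bath-35, bath-44, bath-45, btb-12 and math-1), close to the 27.7% of all genes tested for which this holds. For 2 members, bath-24 and btb-4, they lay above, against 23.6% of all genes. Within experiments, the sign of the difference between rnp-2(mg582) and wildtype was the same in both for 24 of 31 members and opposite for 7. How often the signs match over all genes was not counted, so this is no result about the family. The differences of bath-21 were -0.82 and -0.99, those of math-1 -0.80 and -0.88, and those of btb-12 -0.54 and -0.54. In contrast, bath-20 stood at -0.47 in experiment 1 and 0.042 in experiment 2, and btb-11 at -0.55 and 0.025. In neither experiment was a member past 2-fold on this scale, whereas in experiment 1 3.41% of all genes tested were past it up and 5.07% down, and in experiment 2 3.21% and 4.42%. Members under 0.5 scaled CPM in wildtype could not fall past 2-fold on this scale, even with no reads left.

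**Figure D2:**
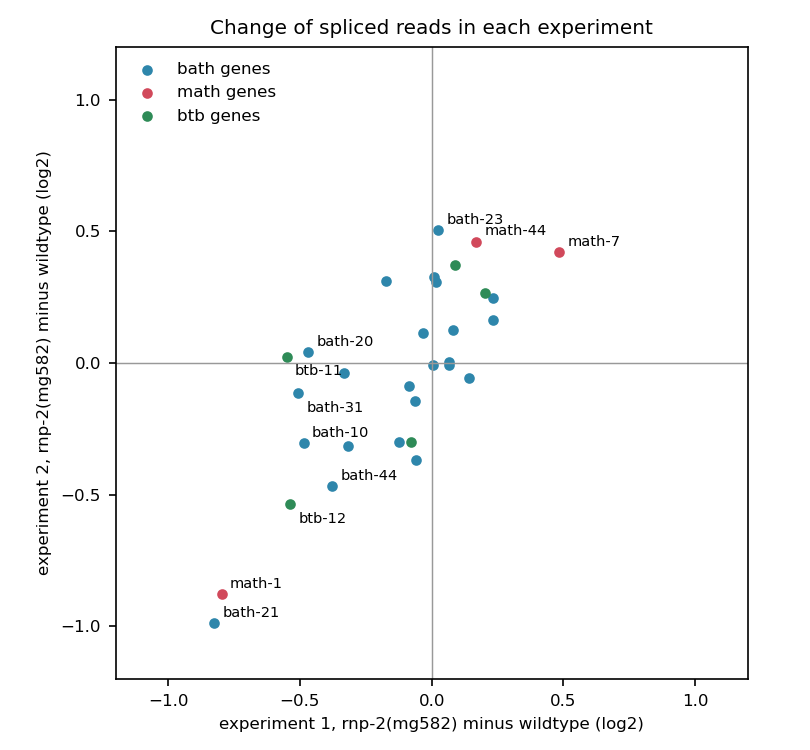
Difference of spliced reads between rnp-2(mg582) and wildtype on the log2(scaled CPM + 0.5) scale, in experiment 1 (horizontal) and experiment 2 (vertical), 1 point per member for the 31 members tested, coloured by subfamily. bath-21 and math-1 stand apart at the lower left in both experiments, and most other members lie within 0.5 of 0.

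Setting all 5 mutant libraries against the 2 wildtype libraries, limma called 0 of 31 members and 0 of 3551 genes (0%), with 2 members and 328 genes at an unadjusted p under 0.05. edgeR called 0 genes, and DESeq2 called 53 genes, 0 of them members. The median log2 difference was 0.062 over the members and -0.012 over all genes. All mutant libraries lay below both wildtype libraries for bath-21, bath-44 and btb-12 (8.34% of all genes tested), and above both for bath-24 and btb-4 (5.27%). For bath-44 the wildtype values were 0.695 and 0.609 scaled CPM and the mutant values ran from 0.169 in rnp-3(ok1424) to 0.419 in rnp-2(mg582) 1.

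Genotypes with 1 library have no replicate check, and each was set beside the wildtype library of its own experiment. In rnp-2(tm4058) no member was past 2-fold in either direction on the log2(scaled CPM + 0.5) scale (3.75% of all genes were up and 6% down). In rnp-3(ok1424) there was likewise none (1.21% up and 1.61% down). On this scale a gene under 0.5 scaled CPM in wildtype cannot fall past 2-fold, even with no reads left. An example is btb-8, which had no reads in rnp-3(ok1424) and stood at -0.73. For such low members the absence of a fall past 2-fold is therefore no result. In mog-2(ok1221) none was past 2-fold up (3.35%) and 2 were down (4.53%), namely btb-11 with -1.66 and bath-31 with -1.08.

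The btb-11 gene is the clearest case, with 53 reads (1.08 scaled CPM) in wildtype 1 and 0 in mog-2(ok1221). At a floor of 3 reads per library, mog-2(ok1221) was at least 12.3-fold lower than wildtype 1. The remaining libraries had 0.581 and 0.332 scaled CPM in rnp-2(mg582), 0.947 in rnp-3(ok1424), 0.318 in wildtype 2 and 0.414 in rnp-2(tm4058), so experiment 2 was low in every genotype, wildtype included. Its paralog btb-10, which shares the donor sequence printed above, had 0.368 and 0.265 in wildtype, 0.205 in mog-2(ok1221) and 0.744 in rnp-3(ok1424). Reads of btb-8 behaved like those of btb-11 in mog-2(ok1221), with 16 in wildtype 1 and 0 in both mog-2(ok1221) and rnp-3(ok1424), which were at least 3.72-fold and at least 3.22-fold lower. In rnp-2(mg582), btb-8 had 14 and 6 reads, and in wildtype 2 it had 5.

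Among the unspliced reads of the members, those of math-46 stood out. The filter left 10 members of 489 genes tested. In limma 1 of these 10 members was called up, against 22.9% of the genes tested in either direction (13.9% up and 9% down). Members were thus not called more often than the genes tested. The called member was math-46, whose single listed intron, I:3746751-3747500 on the plus strand (750 bases), had 0 spliced reads in every library. Its unspliced reads were 0 and 2 in wildtype, 19 and 28 in rnp-2(mg582), 10 in rnp-2(tm4058), 2 in mog-2(ok1221) and 0 in rnp-3(ok1424). As levels these were 0 and 0.0265 scaled CPM in wildtype, 0.613 and 0.844 in rnp-2(mg582), 0.828 in rnp-2(tm4058), 0.0585 in mog-2(ok1221) and 0 in rnp-3(ok1424). All 3 libraries of rnp-2 mutants were thus high, and those of wildtype and of both U2 snRNP genotypes were near 0.

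The log2 difference of math-46 in rnp-2(mg582) was 1.25 ± 0.18 (SE) with an adjusted p of 0.00538 in limma. In reads, rnp-2(mg582) was 45.6 times wildtype (95% counting interval 11.9 to 388). In experiment 1 it was 19 reads against 0, and in experiment 2 the ratio was 31.9 (8.04 to 276). The rnp-2(tm4058) library was 31.3 times wildtype 2 (6.67 to 294), with no replicate. The tests of edgeR and DESeq2 on reads called it too. Only rnp-2 libraries held 10 or more of its reads, so it passed the filter through the group in which it was high. Every line of the table also reached 0.505 CPM in some column. For math-46 only rnp-2(mg582) 1 could have reached it, with 19 of its 14573903 reads. The difference in experiment 1 thus uses the library through which the gene was listed. The pooled ratio and the test include that library. The call was lost in limma without wildtype 1 (adjusted p = 0.178) and without rnp-2(mg582) 2 (adjusted p = 0.0897). It was also lost with library size as the only scaling (adjusted p = 0.158) and without a filter on low counts (adjusted p = 0.118), where no gene passed.

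The member with most unspliced reads was btb-13, the annotated pseudogene. It had 0.633 and 0.966 scaled CPM in wildtype, 1.06 and 1.09 in rnp-2(mg582), 0.745 in rnp-2(tm4058), 0.556 in mog-2(ok1221) and 1.18 in rnp-3(ok1424). Although both rnp-2(mg582) libraries lay above both wildtype libraries, the log2 difference of 0.29 had an adjusted p of 0.414 in limma. Its neighbour on the other strand, btb-12, had 193 unspliced reads in all, 191 of them at the acceptor end of its first listed intron. All unspliced reads of the gene stood at 0.797 and 1.01 scaled CPM in wildtype, 0.678 and 0.633 in rnp-2(mg582), 0.248 in rnp-2(tm4058), 0.381 in mog-2(ok1221) and 0.677 in rnp-3(ok1424). Every mutant was below wildtype, as with its spliced reads, and the log2 difference in rnp-2(mg582) was -0.27 (adjusted p = 0.377 in limma).

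Of the math genes, math-49 had 130 unspliced reads and 1 spliced read. Its levels were 0.490 and 0.595 scaled CPM in wildtype, 0.323 and 0.332 in rnp-2(mg582), 0.414 in rnp-2(tm4058), 0.410 in mog-2(ok1221) and 0.711 in rnp-3(ok1424), a log2 difference of -0.33 in rnp-2(mg582) with an adjusted p of 0.252 in limma. For math-48 the reads were 11 and 19 in wildtype, 1 and 3 in rnp-2(mg582), 0 in rnp-2(tm4058), 6 in mog-2(ok1221) and 4 in rnp-3(ok1424). Wildtype was 3.86 times rnp-2(mg582) in reads (1.36 to 15.1), and the log2 difference of -0.40 had an adjusted p of 0.0512 in limma. The bath-28 reads were 16 and 6 in wildtype, 2 and 0 in rnp-2(mg582), 0 in rnp-2(tm4058), 8 in mog-2(ok1221) and 6 in rnp-3(ok1424). Its log2 difference in rnp-2(mg582) was -0.38 with an adjusted p of 0.153 in limma, and ran from -0.65 to -0.11 when 1 library was left out. The wildtype 2 level of 0.0794 scaled CPM is near the 0.0645 of rnp-2(mg582) 1 and below that of 1 read in rnp-2(tm4058), 0.0828, so the 0 there is not informative at this depth.

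With the experiment as a replicate block limma called 3 of the 10 members and 207 of the 489 genes tested. The members were math-46 up and bath-28 (adjusted p = 0.0116 in limma) and math-48 (adjusted p = 0.00971 in limma) down. Members were thus not called more often than the genes tested here either. Below both wildtype libraries in rnp-2(mg582) were 6 of the 10 members tested (bath-24, bath-28, btb-12, math-13, math-48 and math-49), against 31.7% of the genes tested. Above both were btb-13 and math-46, against 32.1%. The median log2 difference was -0.21 over the 10 members and -0.019 over all genes tested.

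**Figure D3:**
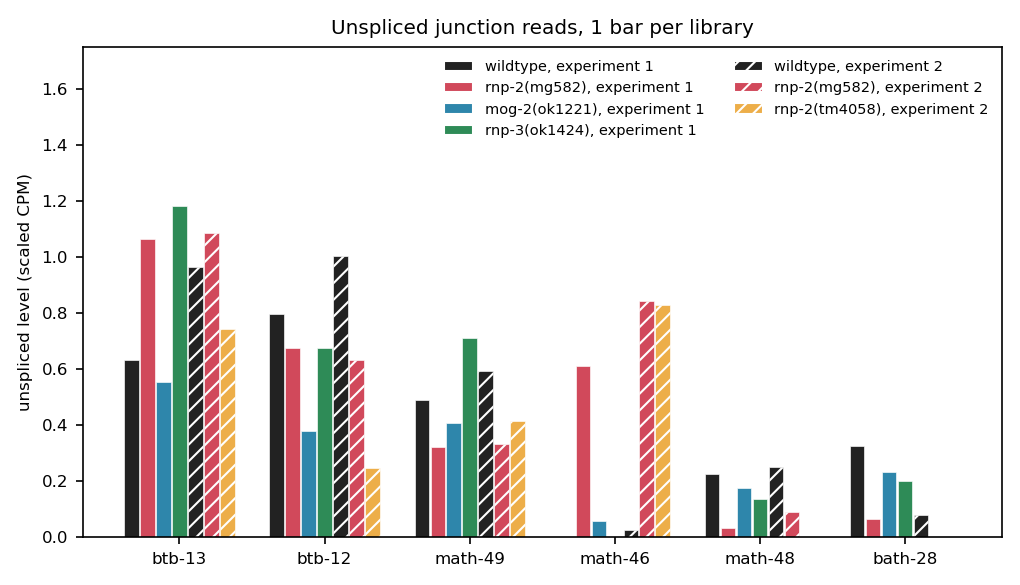
Unspliced level in scaled CPM of 6 members described here that had a listed intron with mostly unspliced reads. Levels are summed over all listed introns of a gene. There is 1 bar per library, plain for experiment 1 and hatched for experiment 2, coloured by genotype. The math-46 bars reach 0.613 to 0.844 in the 3 rnp-2 libraries and at most 0.0585 elsewhere.

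The ratio of unspliced to spliced reads was tested for all 36 members. In limma 1 was called, math-46 (adjusted p = 0.00787), which was up, against 6.6% of 3680 genes in either direction and 3.83% up. As math-46 has no spliced reads, its ratio carries the same reads as its unspliced level and is no second result. With the replicate block limma called 3 of the 36 members and 441 of 3680 genes. It added bath-21 (adjusted p = 0.0265 in limma) and math-1 (adjusted p = 0.0325 in limma). The edgeR test of the ratio called no member and 9 genes in all. The 2 added genes had 3 and 27 unspliced reads in all libraries together, so their ratios follow the spliced reads described above.

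Of the 5 members with most spliced reads, bath-45 had the most introns in the table. All 7 annotated introns of bath-45 were listed, and introns 5 and 6 held 5017 and 5267 of its spliced reads. These ends are shown because no other member introns had as many spliced reads, donor first, with GT and AG in capitals and 5 exon bases at the outer side.
bath-45 intron 5 donor, II:13124197-13124249, plus strand: agcagGTgtgttttt
bath-45 intron 5 acceptor: atttttccAGatcct
bath-45 intron 6 donor, II:13124389-13124430, plus strand: cgatgGTaaaaaacg
bath-45 intron 6 acceptor: taaatttcAGatctc
Intron 6 also had the most unspliced reads of the gene, 56. Intron 6 made up 57.8% of the reads of introns 5 and 6 in wildtype 1 (95% Wilson interval 55.5 to 60.1%), 58.7% in rnp-2(mg582) 1, 52.3% in mog-2(ok1221) and 55.4% in rnp-3(ok1424). In experiment 2 its share was 47.6% in wildtype 2 (45.8 to 49.4%), 44.7% in rnp-2(mg582) 2 and 43.3% in rnp-2(tm4058). The 4 libraries of experiment 1 were all above the 3 of experiment 2, whatever the genotype. This pair of introns was compared after its values had been seen, and the cause was not tested.

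Introns 2, 4 and 7 of bath-45 also took larger shares of its spliced reads in experiment 1 (6.06 to 8.35%, 4.30 to 6.06% and 5.11 to 5.54%) than in experiment 2 (3.94 to 5.36%, 1.46 to 2.39% and 2.69 to 3.09%), with no overlap. Intron 1 did not separate the experiments, with 8.35 to 16.8% in experiment 1 and 6.75 to 15.8% in experiment 2. There the lowest library of each experiment was a mutant of rnp-2.

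**Figure D4:**
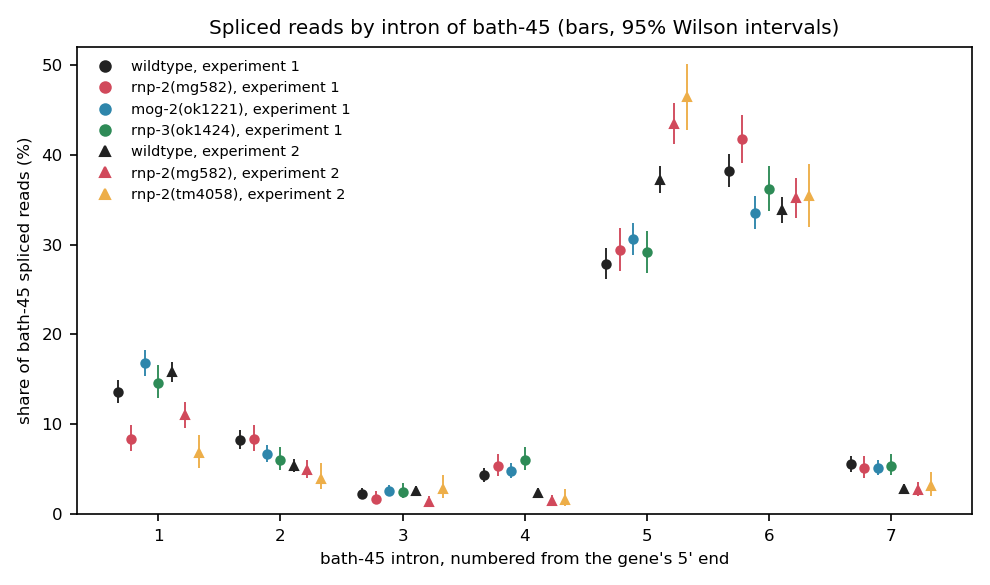
Share of the spliced reads of bath-45 at each of its 7 introns (%), numbered from the 5′ end of the gene, 1 point per library with 95% Wilson intervals that cover counting error only; circles are experiment 1 and triangles experiment 2. Intron 5 runs from 27.9 to 30.6% in experiment 1 and from 37.2 to 46.4% in experiment 2.

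In bath-20 the intron with most spliced reads was II:2040998-2041051 (1888 reads) and the intron with most unspliced reads II:2040811-2040861 (35 reads). In bath-24 they were II:2045259-2045312 (1265 spliced reads) and II:2045059-2045110 (41 unspliced beside 230 spliced reads), so spliced and unspliced reads peaked at neighbouring introns. The first listed intron held between 74.7 and 86.7% of the spliced reads of bath-24 in every library. For bath-7 the intron II:1920139-1920183 held 1290 spliced reads, and II:1920336-1920378 had the most unspliced reads, only 3. For bath-31 the intron II:3732720-3732763 held 723 spliced reads and the gene's 1 unspliced read.

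Over the 7 libraries, the genes whose log2 levels ran most like bath-45, of 838 with a mean of at least 1 scaled CPM, were Y48G1BM.8 (Pearson r = 0.965), C46C2.3 (0.963), nit-1 (0.954), Y45F10C.6 (0.936) and C33B4.4 (0.933). For bath-20 they were W03H9.2 (0.936), nrd-1 (0.932), F53G12.4 (0.918), saeg-2 (0.916) and acs-5 (0.915). These are descriptions over 7 libraries that share 2 experiments and 1 scaling, and the top 5 of 838 genes reach high values in any such ranking.

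Of a list of 44 genes of CUL-3 ligases, their regulators and other BTB proteins, 16 were listed and tested in rnp-2(mg582). In limma 0 were called up and 0 down, and their median log2 difference was 0.028. Only kel-1, a kelch repeat gene, and inso-1, a BTB adaptor gene like insomniac of Drosophila, had levels like those of the larger bath genes. Wildtype had 19.3 and 19.1 scaled CPM of kel-1, and the mutant libraries ran from 19.4 to 25.9. The inso-1 values were 22.8 and 20.8 in wildtype, 14.7 and 12.3 in rnp-2(mg582), 13.8 in rnp-2(tm4058), 10.3 in mog-2(ok1221) and 25.6 in rnp-3(ok1424). Its log2 difference in rnp-2(mg582) was -0.68 with an adjusted p of 0.118 in limma, so it did not pass. The best known MATH and BTB adaptor gene, mel-26, had a mean of 0.106 scaled CPM.

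The F-box genes, substrate adaptors of another cullin ligase, were tabulated beside this family as another expanded one. Of 58 tested, 2 were called up and 7 down in rnp-2(mg582) by limma, with a median log2 difference of -0.14, against 0 of 31 MATH and BTB genes with a median of -0.0013. Whether the families differ was not tested.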

How the data were processed

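The authors deposited CPM values at splice junctions for 7 small RNA libraries. Per the submitters' processing notes the tools included STAR and SAMtools, without version or role. Of the values, 100% in each library were whole multiples of 1 step (within 1e-06 reads), which gave library totals and reads. The step of rnp-3(ok1424) lies close to a power of 10, so that library's reads could not be checked against rounding in the same way and are less certain. 24 lines without values were not analysed here, and every line reached 0.505 CPM in some column. Of the lines, 98.1% lie at intron boundaries of WBcel235 (Ensembl release 115), and coordinates are 1-based. Introns of 1 gene with at least 20 spliced reads each were compared library by library. Where their absolute differences, summed over the 7 libraries, were at most 5% of the larger total, they counted as 1 junction, which left 7282. Among the members this merged 2 introns, both of btb-4, into 1. Limma 3.58.1 (trended empirical Bayes, R 4.3.3) was run on log2(CPM + 0.5) after scaling with TMM (edgeR 4.0.16), 1 coefficient per genotype over 7 libraries, with edgeR's filterByExpr (minimum count 10, minimum total 15). This scale understates changes of low genes. Alternatives were edgeR's quasi-likelihood test and DESeq2 1.42.0 on the recovered reads, library size alone, other pseudocounts and filters, and each library left out. Experiment numbers in the labels pair the libraries, and deviations of same-numbered wildtype and rnp-2(mg582) libraries from their genotype means had a correlation of 0.383 over 3551 genes, so the experiment was the replicate block. The fit was tested on simulated data. Named members are the 8 of highest level, the 3 highest of each subfamily, those called, the 4 of smallest p per direction and the 5 with most unspliced reads; the others were named after their values were seen. Members and lists were chosen with earlier results of these data known.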

Additional observations from a re-analysis of the deposited data

How the results depend on the processing

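With the experiment as a replicate block the number of members called in rnp-2(mg582) went from 0 to 2 for spliced reads. It went from 1 to 3 for unspliced reads and from 1 to 3 for the ratio. Over all genes the block called 714 of 3551, 207 of 489 and 441 of 3680. The block changed no call of a member in the comparison of all mutants, where every setting gave 0. For spliced reads 1 member, bath-21, was called with a pseudocount of 1. For unspliced reads 0 were called with library size alone or no filter, and no member reached a mean of 1 scaled CPM. For the ratio 0 were called with library size alone, with a mean of at least 1 scaled CPM or with edgeR. Leaving out 1 library at a time gave 0 to 1 calls for spliced reads, unspliced reads and the ratio (bath-21 for spliced reads without mog-2(ok1221) or rnp-3(ok1424)); the ratio call was lost without wildtype 1, wildtype 2 or rnp-2(mg582) 2.

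With library size alone no gene passed on spliced reads in rnp-2(mg582), and the median log2 difference was -0.24 over all genes and -0.34 over the members, which turned signs. In rnp-2(mg582) bath-7 came to -0.49, bath-24 to -0.42, bath-41 to -0.32, bath-23 to -0.16 and math-44 to -0.15, and unspliced btb-13 to -0.054 and bath-45 to -0.32. Over all mutants bath-45 came to -0.67, bath-20 to -0.52, bath-7 to -0.40, bath-1 to -0.26, bath-24 to -0.24, bath-10 to -0.18, bath-41 to -0.13, math-7 to -0.044 and math-44 to -0.034. Near 0, bath-1 in rnp-2(mg582) came to 0.0084 with median-of-ratios factors and 0.0099 in DESeq2, and btb-10 over all mutants to 0.025 in edgeR and 0.059 in DESeq2. The ratio of bath-21 was -0.35 in edgeR.

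Leaving out 1 library turned the sign of uncalled log2 differences. In rnp-2(mg582) the ranges were -0.35 to 0.017 for bath-45, -0.49 to 0.082 for bath-20, -0.14 to 0.51 for bath-7, -0.66 to 0.060 for bath-31, -0.037 to 0.054 for bath-1, -0.12 to 0.75 for math-44, -0.75 to 0.21 for btb-11, -0.35 to 0.016 for btb-10, -0.040 to 0.53 for btb-8, -0.093 to 0.61 for bath-23 and, unspliced, -0.12 to 0.30 for bath-45. Over all mutants they were -0.094 to 0.11 for bath-45, -0.20 to 0.36 for bath-20, -0.11 to 0.43 for bath-10, -0.19 to 0.38 for math-7, -0.82 to 0.14 for btb-11, -0.19 to 0.044 for btb-10 and -0.34 to 0.19 for btb-8. Of the results for single members, 296 of 333 under left-out libraries and 405 of 437 under other settings kept direction and call. The causes were not tested. Depth limits the low members: in rnp-2(tm4058) 1 read is 0.0828 scaled CPM.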
